A study of Rattus norvegicus with 6 samples.

Results

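The proteasome is the large protease that degrades proteins tagged with ubiquitin in the cytosol and nucleus. Its barrel, the 20S core, is built of outer rings of alpha subunits, which gate the entry, and inner rings of beta subunits, some of which carry the proteolytic sites. The 19S regulatory particle caps the barrel with a base of ATPases that unfold the substrate and a lid that removes the ubiquitin chain, and other caps, inhibitors and assembly chaperones complete the family. In heart muscle this system takes part in the turnover of contractile and signalling proteins.

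The genes described here were chosen by symbol, namely all genes called Psma to Psmg followed by a digit, except Psmb8 and Psmb9. In all, 44 such genes had a probe among 15168 named genes with a probe, and 43 were tested among 11580 named genes tested. Psma8, the testis-type alpha subunit, is the exception, because none of its 3 probes was well above background on all arrays of either group. Among the 43, Psmc3ip and Psme3ip1 carry the symbol pattern but encode binding partners and not subunits, which leaves 41 genes for subunits, activators, the inhibitor and chaperones. All 43 were well above background on all 6 arrays. The table used for naming lists 100 genes of this pattern, of which 56 have no named probe here, 8 of them protein coding (Psmd11, a lid subunit, is one) and 48 pseudogenes. The family was proposed with results of the same contrast known, so counts and medians over it are descriptions and get no test.

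The cells were ventricular myocytes of Sprague-Dawley rats, labelled male and 1 to 2 days old, with fibroblasts reduced by preplating and 5-bromodeoxyuridine in the medium. One group received an siRNA against uc.323 (si-uc.323), a transcribed ultraconserved region, and the other a scrambled siRNA (si-scramble), both at 50 nmol/L. Transfection followed 36 h of culture, lasted 3 h in serum-free medium and was followed by 21 h without serum, so that cells were harvested at 24 h. Each group had 3 cultures, with 1 single-colour array per culture. A single siRNA was used (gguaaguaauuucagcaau, 19 bases as the labels give it), and uc.323 itself was not analysed here, so the knockdown was not checked. Slide 1 carried si-uc.323 replicate 1 together with the 3 si-scramble arrays, and slide 2 carried si-uc.323 replicates 2 and 3, as inferred from the scan identifiers. On slide 2, 78.2% and 86.5% of probes were well above background, against 71.8% to 73.9% on slide 1. Markers of cardiomyocytes were well above background on all 6 arrays for 8 of 8 genes, but so were all tested markers of fibroblasts (8), endothelium (5), smooth muscle and pericytes (6), leukocytes (8), erythroid cells (3) and Schwann cells (4). By this measure signal of other cell types was present in both groups, and fewer cells of a type cannot be told apart from less RNA per cell. The cultures are described as independent experiments with no litter named. A p-value here sets the difference between groups against the spread of the 3 cultures within a group, with variances moderated over all features.

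Values below are log2 intensities relative to the 75th percentile of the same array, and a positive log2 fold change means higher in si-uc.323 cells, with the standard error of the fit (SE, n = 3 and 3 arrays). A gene passed the test at an adjusted p under 0.05, by limma with Benjamini-Hochberg adjustment over all 19920 features. Of the 43 proteasome genes, 4 were higher in si-uc.323 cells (Psmd7, Psmd13, Psma7 and Psmc1) and 0 were lower, while 17 were positive and 1 was negative at an unadjusted p under 0.05 (16.7% and 13.3% of all named genes, 30.1% in all). That is 9.30% higher, beside a background of 3.26% of all named genes called higher and 2.88% called lower. The log2 fold change was positive for 35 of 43, with a median of 0.22 and a range of -0.49 to 1.17, beside a median of 0.02 and 52.7% positive over all named genes. With each array shifted by its median instead, which put the median of all named genes at -0.08, 28 of 43 were positive and their median was 0.11. In 19 of the 43 the 3 si-uc.323 values all lay above the 3 si-scramble values (44.2%, background 20.1%), and in 2, Psme4 and Psmf1, all lay below (background 19%). Just inside the threshold stood Psmc1 (adjusted p = 0.0446). Just outside it, at an adjusted p of 0.05 to 0.1, stood 8 genes, of which 7 had positive values (Psmd14, Psmd3, Psmc3, Psmd10, Psmc3ip, Psmc4 and Psma5) and 1 a negative value (Psme4). Without si-scramble replicates 1, 2 and 3, only 0, 3 and 0 of 11580 named genes were called higher. At an unadjusted p under 0.05 stood 2380, 2412 and 2095 named genes, with 11 to 12 proteasome genes positive and 1 negative. With the slide as a block in the fit, 0 named genes were called higher. All 4 proteasome calls were thus lost without any one si-scramble array and with the slide block (0 called in each). Their adjusted p was then 0.0885 to 0.202 without a si-scramble array and 0.156 to 0.303 with the slide block, which rests on si-uc.323 replicate 1 alone. Psmd7 and Psmd13 passed without any one si-uc.323 array, whereas Psma7 did not pass without si-uc.323 replicate 1 (adjusted p = 0.0611) or 3 (0.0566), nor Psmc1 without replicate 3 (0.0797). With the replicate number as a block, 3 passed, Psmd7, Psmd13 and Psmd14, whereas Psma7 (adjusted p = 0.0732) and Psmc1 (0.0693) did not.

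**Figure D1:**
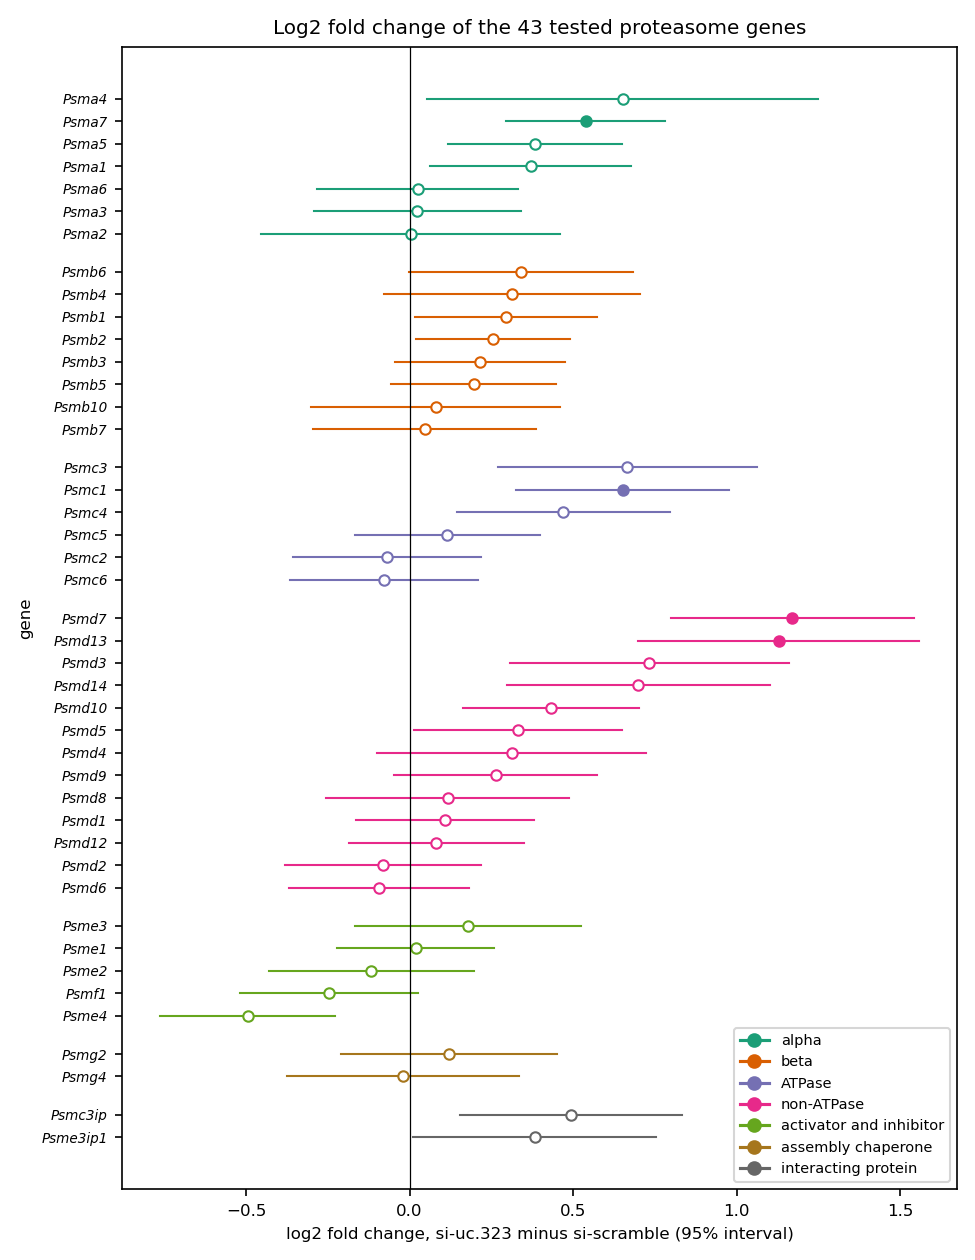
Log2 fold change (si-uc.323 minus si-scramble) of each of the 43 proteasome genes, grouped by class. Bars are the 95% interval of the fit (n = 3 and 3 arrays), and filled points have an adjusted p under 0.05. The 4 filled points, Psmd7, Psmd13, Psma7 and Psmc1, lie to the right of 0, and Psme4 at -0.49 is the lowest gene.

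The 4 largest log2 fold changes of the family belonged to genes of the 19S lid. Psmd7, a lid subunit that pairs with the deubiquitinase Psmd14, read -0.62, -0.75 and -0.20 on the 3 si-uc.323 arrays, against -1.70, -1.75 and -1.63 on the 3 si-scramble arrays. Every si-uc.323 value lay above every si-scramble value, with a log2 fold change of 1.17 ± 0.16 (SE), or 2.25-fold (limma, adjusted p = 0.0202). Psmd13, another lid subunit, read -1.03, -0.84 and -0.37 in si-uc.323 cells, against -1.80, -1.84 and -1.996 in si-scramble cells. Its groups were apart too, by 1.13 ± 0.18 or 2.19-fold (limma, adjusted p = 0.0269). Both genes were highest on si-uc.323 replicate 3, a slide 2 array, and on slide 1 alone replicate 1 lay 1.08 (Psmd7) and 0.84 (Psmd13) above the si-scramble mean.

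Psmd14, the metalloprotease of the lid that cuts ubiquitin chains off the substrate, read -0.43, -0.84 and -0.32 in si-uc.323 cells, against -1.08, -1.42 and -1.18 in si-scramble cells. The groups did not overlap, and the difference of 0.70 ± 0.17 did not pass (limma, adjusted p = 0.0596). Psmd3, a scaffold subunit of the lid, read -1.30, -1.32 and -0.77 in si-uc.323 cells, against -1.81, -1.72 and -2.05 in si-scramble cells. It was also without overlap and did not pass, at 0.73 ± 0.18 (limma, adjusted p = 0.0610). The remaining lid genes were near 0, with Psmd8 at 0.12, Psmd12 at 0.08 and Psmd6 at -0.09. Over the 7 lid genes 2 passed as higher and 0 as lower (3.26% and 2.88% of all named genes), and the median was 0.70. In 4 the si-uc.323 values all lay above the si-scramble values (20.1% of all named genes). The si-scramble means of these 4 were -1.88 to -1.23, against -0.04 for Psmd8, 1.62 for Psmd12 and 3.60 for Psmd6.

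In the base of the 19S particle, 1 of 6 ATPases passed as higher and 0 as lower (3.26% and 2.88% of all named genes). Their median log2 fold change was 0.29. Psmc1, an ATPase of the base ring, read 0.77, 0.97 and 1.12 in si-uc.323 cells, against 0.31, 0.44 and 0.15 in si-scramble cells. Without overlap, it was higher by 0.65 ± 0.14 or 1.57-fold (limma, adjusted p = 0.0446). Psmc3, another ATPase of the ring, read 0.45, 0.53 and 0.93 in si-uc.323 cells, against 0.16, -0.02 and -0.22 in si-scramble cells, with 0.67 ± 0.17 that did not pass (limma, adjusted p = 0.0632). Psmc4 read -0.27, -0.42 and 0.01 in si-uc.323 cells, against -0.63, -0.73 and -0.73 in si-scramble cells. Its log2 fold change of 0.47 was also not past the threshold (limma, adjusted p = 0.0876), although its groups did not overlap. The other ATPases differed little, Psmc5 by 0.12, Psmc2 by -0.07 and Psmc6 by -0.08. Thus 3 ATPase genes had groups that lay apart, with si-uc.323 above (20.1% of all named genes), and 3 had groups that overlapped.

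Among base subunits without ATPase activity, none of 3 passed (median 0.11). Psmd4, a receptor for ubiquitin chains, read 1.67, 1.17 and 1.75 in si-uc.323 cells, against 1.32, 1.07 and 1.26 in si-scramble cells. Replicate 2 overlapped the si-scramble values, and the difference was 0.31 ± 0.17 (limma, adjusted p = 0.287). The scaffold subunits Psmd1 and Psmd2 read log2 fold changes of 0.11 and -0.08. The chaperones that assemble the base, Psmd10 (0.43), Psmd5 (0.33) and Psmd9 (0.26, and 0.48 on a second probe), were all positive and none passed. Psmd10, known as gankyrin, read -0.73, -0.65 and -0.56 in si-uc.323 cells, against -1.19, -1.08 and -0.98 in si-scramble cells, without overlap (limma, adjusted p = 0.0678). Taken over the 13 non-ATPase genes, 2 were higher and 0 were lower (3.26% and 2.88% of all named genes). Of the 13, 11 had positive values, with a median of 0.31 (10 positive and a median of 0.21 with the median shift).

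In the alpha ring, 1 of 7 genes passed as higher and all 7 log2 fold changes were positive (median 0.37), though 4 of 7 were with the median shift, where Psma7 did not pass (adjusted p = 0.0730), and 5 of 7 with normexp background correction. With the slide as a block 5 of 7 were positive and the alpha median was 0.16. Psma7, a constitutive alpha subunit, read 2.29, 2.30 and 2.33 in si-uc.323 cells, against 1.82, 1.68 and 1.79 in si-scramble cells. The si-uc.323 values lay within a narrow band above all si-scramble values, with a log2 fold change of 0.54 ± 0.10 or 1.45-fold (limma, adjusted p = 0.0362). The naming table lists 3 like-named copies of Psma7 and none of Psmd7, Psmd13 or Psmc1; whether the Psma7 probe also reads them was not tested. Psma5 read 2.57, 2.54 and 2.35 in si-uc.323 cells, against 2.15, 2.04 and 2.12 in si-scramble cells, without overlap and without passing (0.38 ± 0.11, limma, adjusted p = 0.0879). Psma4 read 1.27, 2.12 and 1.88 in si-uc.323 cells, against 1.06, 1.44 and 0.80 in si-scramble cells. It had the largest log2 fold change of the ring, 0.65 ± 0.25, but si-uc.323 replicate 1 lay among the si-scramble values (limma, adjusted p = 0.151). Psma1 stood at 0.37, and Psma6, Psma3 and Psma2 were at 0.03, 0.02 and 0.00.

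The 8 beta ring genes were all positive (6 with the median shift, 7 with normexp background correction) and none passed, 2 having an unadjusted p under 0.05 (30.1% of all named genes did), with a median of 0.23 (0.13 with the median shift) and a range of 0.05 to 0.34. In 5 of the 8 the groups did not overlap, with si-uc.323 above, beside 20.1% of all named genes. Psmb2, a structural subunit, read 2.29, 2.22 and 2.32 in si-uc.323 cells, against 2.01, 2.01 and 2.05 in si-scramble cells, a difference of 0.25 ± 0.10 (limma, adjusted p = 0.154). Psmb1, also structural, read 0.95, 1.16 and 0.93 in si-uc.323 cells, against 0.69, 0.64 and 0.82 in si-scramble cells, a difference of 0.29 ± 0.12 (limma, adjusted p = 0.161). Both differences were smaller than that of any called gene, and the 95% interval of Psmb2 was 0.02 to 0.49.

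The median log2 fold change was 0.14 over the 4 catalytic subunits and 0.27 over the 4 structural ones, a contrast that was not tested. Psmb5, of the chymotrypsin-like site, read 2.01, 1.89 and 2.08 in si-uc.323 cells, against 1.81, 1.77 and 1.81 in si-scramble cells (0.20 ± 0.11). Psmb6, of the caspase-like site, read -0.23, -0.19 and 0.08 in si-uc.323 cells, against -0.33, -0.67 and -0.37 in si-scramble cells (0.34 ± 0.15). Neither pair of groups overlapped and neither passed (limma, adjusted p = 0.274 and 0.181). Psmb7, of the trypsin-like site, read 0.26, -0.15 and 0.31 in si-uc.323 cells, against 0.08, 0.12 and 0.08 in si-scramble cells (0.05 ± 0.15). Psmb10, the inducible subunit that replaces Psmb7 in immunoproteasomes, read 1.88, 2.22 and 1.68 in si-uc.323 cells, against 1.80, 1.99 and 1.75 in si-scramble cells (0.08 ± 0.16). Both overlapped and did not pass (limma, adjusted p = 0.861 and 0.780), and the sign of each depended on the scaling.

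**Figure D2:**
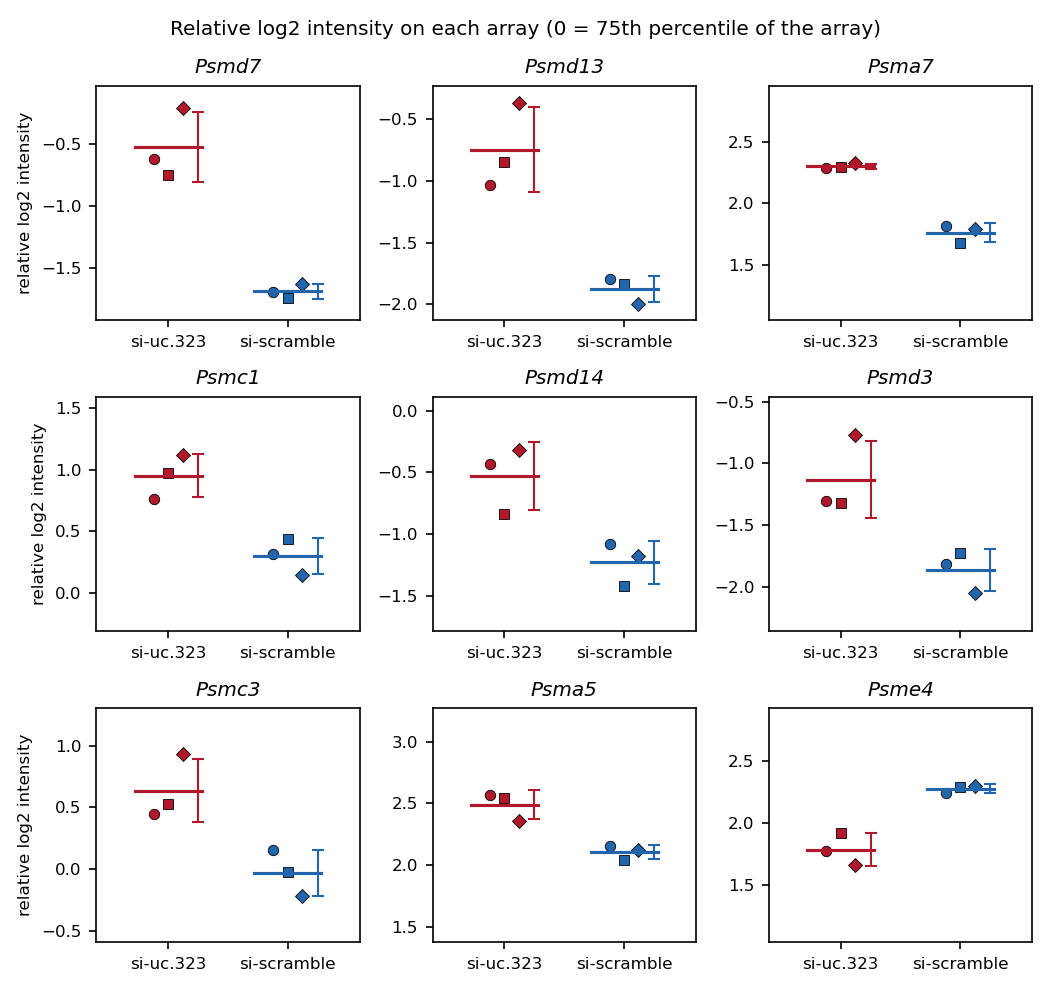
Relative log2 intensity on each of the 6 arrays for the genes named, with si-uc.323 left of si-scramble. Circles, squares and diamonds are replicates 1, 2 and 3, lines are means and bars are the SD (n = 3); for Psmd7, Psmd13, Psma7 and Psmc1 all si-uc.323 points lie above all si-scramble points.

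Of the 5 genes for activators and the inhibitor none passed (1, Psme4, had an unadjusted p under 0.05), 2 were positive and the median log2 fold change was -0.12 (0.02 when the probes of a gene were averaged). Psme4, an activator that caps the barrel without using ubiquitin, read 1.77, 1.92 and 1.66 in si-uc.323 cells, against 2.24, 2.29 and 2.30 in si-scramble cells. All its si-uc.323 values lay below all si-scramble values and the difference of -0.49 ± 0.11 did not pass (limma, adjusted p = 0.0527). It passed as lower under 9 of 19 other settings. Its second probe read -0.14. Psmf1, an inhibitor of the core, read 0.26, 0.47 and 0.38 in si-uc.323 cells, against 0.67, 0.68 and 0.51 in si-scramble cells, a difference of -0.25 ± 0.12 that did not pass (limma, adjusted p = 0.212). The second Psmf1 probe read 0.56, of the opposite sign, so no direction is given for the gene. Psme1 and Psme2, the interferon-inducible cap, and Psme3, its nuclear relative, ranged from -0.12 to 0.18.

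The chaperones of the 20S core were near 0. Psmg2 read -1.56, -1.83 and -1.42 in si-uc.323 cells, against -1.62, -1.82 and -1.74 in si-scramble cells (0.12 ± 0.14). Psmg4 read 1.47, 1.68 and 1.31 in si-uc.323 cells, against 1.32, 1.70 and 1.503 in si-scramble cells (-0.02 ± 0.15), and its second probe had the opposite sign. Both overlapped and did not pass (limma, adjusted p = 0.612 and 0.945). Psmc3ip, a meiotic recombination factor, and Psme3ip1, a partner of Psme3, stood at 0.49 ± 0.14 and 0.38 ± 0.16 and did not pass (limma, adjusted p = 0.0865 and 0.169). Psmc3ip read -0.60, -0.13 and -0.33 in si-uc.323 cells, against -0.77, -0.83 and -0.93 in si-scramble cells. Psme3ip1 read -1.38, -1.47 and -0.95 in si-uc.323 cells, against -1.74, -1.63 and -1.58 in si-scramble cells. Neither gene's groups overlapped.

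Class medians were compared array by array. Over all 43 genes the median deviation from the si-scramble mean was 0.21, 0.18 and 0.29 on si-uc.323 replicates 1, 2 and 3, and over all named genes it was -0.002, -0.001 and 0.097. For the alpha genes it was 0.16, 0.28 and 0.25, for the beta genes 0.22, 0.23 and 0.29, for the ATPases 0.29, 0.25 and 0.34, and for the non-ATPase genes 0.36, 0.13 and 0.48. Each of these class medians lay above 0 on each si-uc.323 array, while those of activators and inhibitor were -0.18, -0.09 and -0.24.

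**Figure D3:**
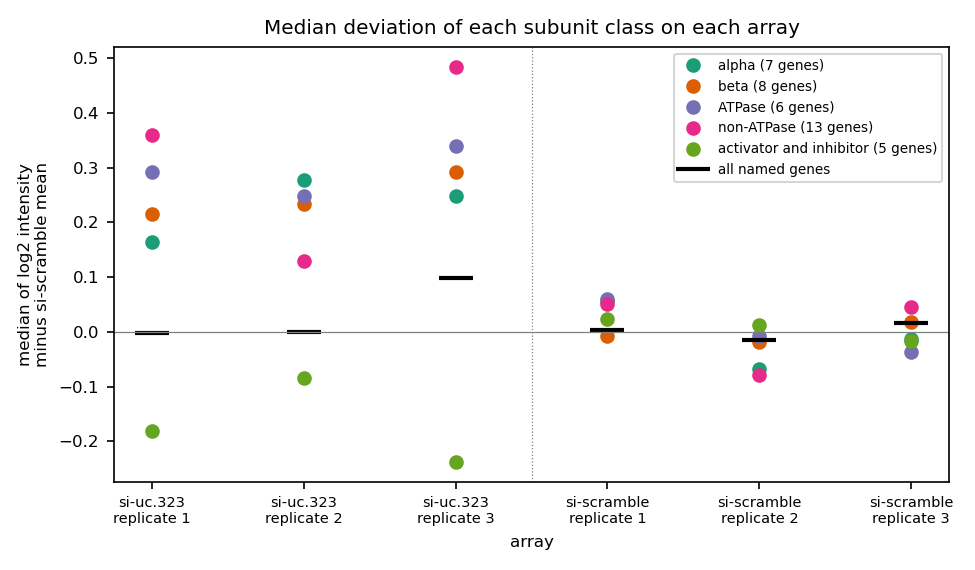
Median deviation from the si-scramble mean (log2) of each class of proteasome genes on each array, si-uc.323 left of si-scramble, with a black bar for all named genes. The alpha, beta, ATPase and non-ATPase medians lie above 0 on all 3 si-uc.323 arrays and those of activators and inhibitor below.

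The difference also varied with probe brightness. Genes with a mean relative intensity of -3 to 0 (13 genes) had a median log2 fold change of 0.43, those of 0 to 2 (17 genes) 0.20 and those of 2 to 4 (13 genes) 0.03. All named genes in the same ranges had medians of 0.07, -0.08 and -0.13 (3832, 2229 and 1035 genes). Across the 43 genes brightness and log2 fold change had a Pearson r of -0.48 and a Spearman rho of -0.50, and across 7096 named genes -0.23 and -0.25. These are descriptions, without a test, of genes that share the same 6 arrays; the ranges were set after the values were seen. The part of brightness in the results was not tested.

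**Figure D4:**
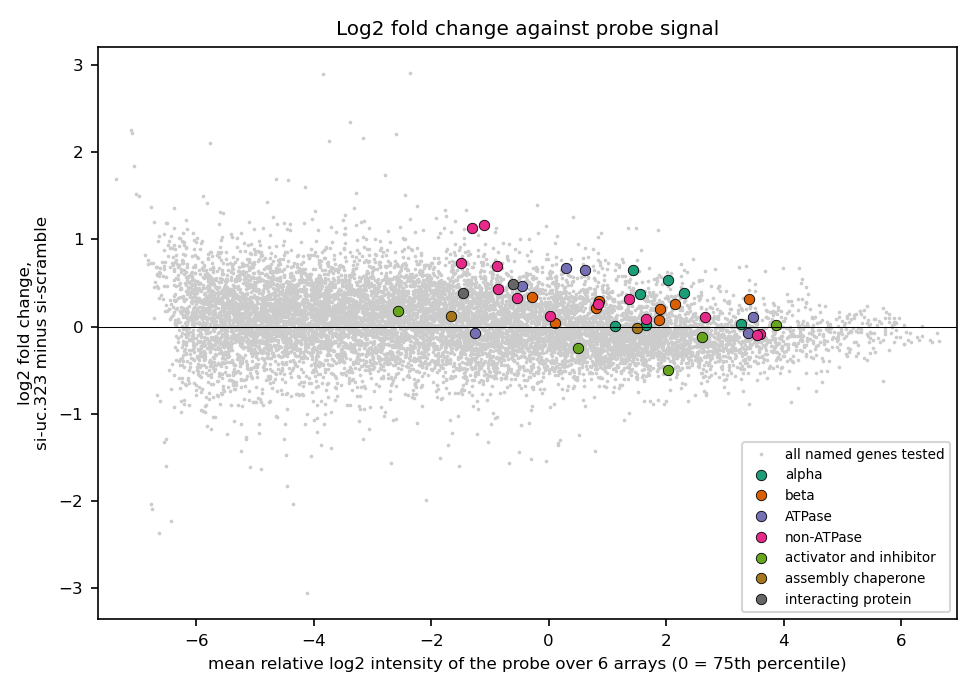
Log2 fold change (si-uc.323 minus si-scramble) against mean relative log2 intensity, for all named genes (grey) and the 43 proteasome genes (coloured by class). Proteasome genes of low brightness lie higher than those of high brightness, and the grey cloud tilts the same way.

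Promoters are shown for the 3 called genes that the promoter table holds, since these genes were higher together, and were chosen for that after their values were seen. The windows run from 250 bases before to 50 after the start of the gene, from RefSeq, build GRCr8. Capitals mark the NF-Y box (CCAAT, or ATTGG on the opposite strand) and the ETS core (CCGGAAG, or CTTCCGG). They lie at chr19:52411267-52411566 on the minus strand, chr1:205393998-205394297 on the plus strand and chr6:125122247-125122546 on the plus strand.
Psmd7: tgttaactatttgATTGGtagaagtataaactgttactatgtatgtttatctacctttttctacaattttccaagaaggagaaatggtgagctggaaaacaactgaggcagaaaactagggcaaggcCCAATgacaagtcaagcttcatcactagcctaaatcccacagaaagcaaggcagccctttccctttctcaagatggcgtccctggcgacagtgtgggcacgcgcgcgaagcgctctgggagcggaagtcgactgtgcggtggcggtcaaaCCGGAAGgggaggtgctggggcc
Psmd13: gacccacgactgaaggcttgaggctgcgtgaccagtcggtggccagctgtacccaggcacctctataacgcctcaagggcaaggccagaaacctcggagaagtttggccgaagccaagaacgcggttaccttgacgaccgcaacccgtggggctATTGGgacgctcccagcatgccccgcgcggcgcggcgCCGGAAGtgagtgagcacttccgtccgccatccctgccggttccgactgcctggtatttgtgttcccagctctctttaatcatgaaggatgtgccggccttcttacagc
Psmc1: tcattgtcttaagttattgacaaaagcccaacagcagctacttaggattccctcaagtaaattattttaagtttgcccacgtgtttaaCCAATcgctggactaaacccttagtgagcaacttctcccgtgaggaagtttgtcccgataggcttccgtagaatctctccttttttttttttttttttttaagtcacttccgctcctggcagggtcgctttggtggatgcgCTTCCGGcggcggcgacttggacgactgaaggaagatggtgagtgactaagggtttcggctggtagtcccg
All 3 hold both motifs, beside 38.3% of promoters of tested genes with CCAAT and 16.3% with CCGGAAG. Marking these motifs was not in the plan, and of the motifs searched they are the ones found in all 3. The nuclear respiratory factor motif GCGCATGC was in 0 of 3, beside 4.51% of promoters of tested genes. The core of the antioxidant response element (TGACNNNGC) was in 0 of 3, beside 14.4% of promoters of tested genes. This element is bound by NFE2L1 and NFE2L2, known activators of proteasome genes, and their part was not tested.

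That element core was found on either strand in 8 of 37 family promoters (21.6%), beside 14.4% of 9462 promoters of tested genes and 12.2% of all 27457 promoters. Among the genes that hold it, the ones with the lowest adjusted p are Psme4 and Psmd3, which differ in the sign of their log2 fold change. They are shown with the element in capitals, at chr14:108706393-108706692 and chr10:84139688-84139987, both on the plus strand.
Psme4: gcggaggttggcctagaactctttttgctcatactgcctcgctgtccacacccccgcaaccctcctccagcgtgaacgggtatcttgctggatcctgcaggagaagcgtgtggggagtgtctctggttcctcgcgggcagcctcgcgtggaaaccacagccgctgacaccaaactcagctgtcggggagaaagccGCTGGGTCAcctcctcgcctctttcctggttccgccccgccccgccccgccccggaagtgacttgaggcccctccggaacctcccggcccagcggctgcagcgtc
Psmd3: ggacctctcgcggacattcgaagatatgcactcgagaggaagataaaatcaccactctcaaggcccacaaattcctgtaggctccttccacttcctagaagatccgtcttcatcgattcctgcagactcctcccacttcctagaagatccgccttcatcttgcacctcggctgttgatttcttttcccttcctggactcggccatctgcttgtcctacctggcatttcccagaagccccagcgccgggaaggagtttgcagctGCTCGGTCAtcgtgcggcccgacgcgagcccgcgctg
The element lies on the opposite strand in both. CCAAT was found in 18 of 37 (48.6%, against 38.3% of tested genes), CCGGAAG in 11 of 37 (29.7%, against 16.3%) and the nuclear respiratory factor motif GCGCATGC in 1 of 37 (2.70%, against 4.51%). The median log2 fold change was 0.23 with the antioxidant element core and 0.18 without it, 0.30 with CCAAT and 0.11 without it, 0.18 with CCGGAAG and 0.21 without it, and 0.004 with GCGCATGC and 0.21 without it. Within the alpha and beta genes the antioxidant element core went with 0.23 against 0.25 without it, and within the ATPase and non-ATPase genes with 0.26 against 0.33, so that its direction turned. In the same sets CCGGAAG went with 0.05 against 0.25 and with 0.48 against 0.30, so that its direction differed between them. CCAAT went with 0.25 against 0.20 and with 0.65 against 0.12. A match is a string of letters in a window and not a shown binding site.

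Other genes of the pathway came from lists set by name. Counts at an unadjusted p under 0.05 are to be read beside the 30.1% of all named genes at that threshold. Calls in this and the next paragraph are to be read beside 3.26% of all named genes called higher and 2.88% called lower. Of 15 regulators of proteasome gene expression 1 was higher and 0 were lower (6 positive and 1 negative at an unadjusted p under 0.05, median 0.22). Mafk, a small Maf partner of NFE2L1 and NFE2L2, read -1.58, -1.64 and -1.26 in si-uc.323 cells, against -2.31, -2.30 and -2.24 in si-scramble cells, higher by 0.78 ± 0.13 (limma, adjusted p = 0.0286). The NFE2L genes themselves did not pass, Nfe2l1 at -0.11 ± 0.12 and Nfe2l2 at 0.12 ± 0.11. Of 14 genes for ubiquitin and its activation 0 were higher and 1 lower (0 positive and 3 negative at an unadjusted p under 0.05, median -0.12). The lower gene was Ube2d1, a ubiquitin-conjugating enzyme, at -0.45 ± 0.10 (limma, adjusted p = 0.0484). Its values were -0.87, -0.95 and -0.92 in si-uc.323 cells, against -0.44, -0.47 and -0.48 in si-scramble cells.

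The protein p97 extracts ubiquitinated proteins for the proteasome. Of 12 genes for p97 and its cofactors 1 was higher and 0 lower (3 positive and 1 negative at an unadjusted p under 0.05, median 0.07). Ubxn1, a p97 cofactor, read -0.01, 0.13 and 0.23 in si-uc.323 cells, against -0.59, -0.57 and -0.44 in si-scramble cells (0.65 ± 0.12, limma, adjusted p = 0.0308). None of 13 receptors, deubiquitinases and other partners passed (1 at an unadjusted p under 0.05, median -0.03), with Rad23b, a shuttle for ubiquitinated proteins, at 0.37, Usp14 at 0.21 and Pomp, the maturation factor of the core, at -0.03. None of 9 immunoproteasome and antigen processing genes, of which Psmb10, Psme1 and Psme2 belong to the family above, passed (0 at an unadjusted p under 0.05, median 0.08), with Psmb8 at 0.44 and Psmb9 at 0.05. In the interferon list 0 of 18 were higher and 1 lower (1 positive and 3 negative at an unadjusted p under 0.05, median -0.16). The lower gene was the chemokine Cxcl10 at -0.73 ± 0.15 (limma, adjusted p = 0.0412). The calls of Mafk, Ube2d1, Ubxn1 and Cxcl10 were all lost without any one si-scramble array, with limma adjusted p of 0.111 to 0.218, while their signs stayed. Other settings lost calls too. Over all 19 other settings Mafk passed in 13, Ubxn1 in 11, Ube2d1 in 10 and Cxcl10 in 10.

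Complexes related to the lid by fold, or large and abundant like the proteasome, had no calls. Of all named genes 3.26% were called higher and 2.88% lower, so no call in lists this short does not set them apart. Of 10 COP9 signalosome genes none passed (0 at an unadjusted p under 0.05, median -0.10), with Cops9 at -0.26. Of 11 genes of translation initiation factor 3 none passed (3 positive and 1 negative at an unadjusted p under 0.05, median -0.01), with Eif3b at 0.55 (limma, adjusted p = 0.0672). Of 8 genes of the chaperonin CCT none passed (3 positive at an unadjusted p under 0.05) and 6 were positive. Their median was 0.31, beside 0.22 for the proteasome genes, and Cct2 stood at 0.39 (limma, adjusted p = 0.0758).

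Markers of other cells moved with the groups in part. All 6 smooth muscle and pericyte markers had positive log2 fold changes, with a median of 0.42, beside 0.22 for the proteasome genes, and none passed. Tagln (0.63), Myh11 (0.56) and Rgs5 (0.42) had groups that did not overlap (20.1% of all named genes, si-uc.323 above) and an unadjusted p under 0.05 (16.7%, positive). The log2 of the summed relative intensity of this list, of which Acta2 (0.12) was the brightest probe, was 5.29 to 5.53 in si-uc.323 cells and 5.19 to 5.35 in si-scramble cells. Fibroblast sums were 6.97 to 7.30 in si-uc.323 cells and 6.95 to 7.06 in si-scramble cells, with 6 of 8 markers positive (median 0.17). Postn was higher (0.69, limma, adjusted p = 0.0312). Col3a1 (0.50) had groups apart and did not pass (limma, adjusted p = 0.0638). Cardiomyocyte sums were 7.49 to 7.70 in si-uc.323 cells and 7.65 to 7.72 in si-scramble cells, with 5 of 8 positive (median 0.01) and none past the threshold. At an unadjusted p under 0.05 the cardiomyocyte markers Ryr2 (-0.46), Tnni3 (-0.34) and Pln (-0.29) were negative without overlap. Of all named genes 13.3% were negative at that threshold and 19% lay below without overlap. Nppa (0.17) lay apart the other way, with an unadjusted p above 0.05.

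Endothelial sums were 2.48 to 3.11 in si-uc.323 cells and 3.47 to 3.64 in si-scramble cells, without overlap, but they followed the brightest probe, Kdr (-0.76), and none of the 5 passed. Tek (0.46, groups apart) and Emcn (0.21) had the opposite sign, and the list median was -0.10. Leukocyte sums were 3.87 to 4.23 in si-uc.323 cells and 4.12 to 4.13 in si-scramble cells. Cx3cr1 was lower (-1.60, limma, adjusted p = 0.0462). Cd68 (-0.41, limma, adjusted p = 0.0654) and Cd14 (-0.21) lay below without overlap (19% of all named genes) and did not pass. Lyz2 stood at -0.03. Csf1r, C1qb, C1qa and Ptprc, 4 of the 8 leukocyte markers, were positive (0.06 to 0.14), and the list median was 0.02. Erythroid sums were 1.501 to 1.89 in si-uc.323 cells and 1.73 to 1.96 in si-scramble cells, with 3 of 3 negative and Hbb lower (-0.61, limma, adjusted p = 0.0478). Schwann sums were -0.41 to -0.14 in si-uc.323 cells and -0.42 to 0.21 in si-scramble cells. Without si-scramble replicate 1 or 3 the calls of Postn, Cx3cr1 and Hbb were lost, as 0 named genes passed in either direction. The part of these markers in the proteasome values was not tested.

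**Figure D5:**
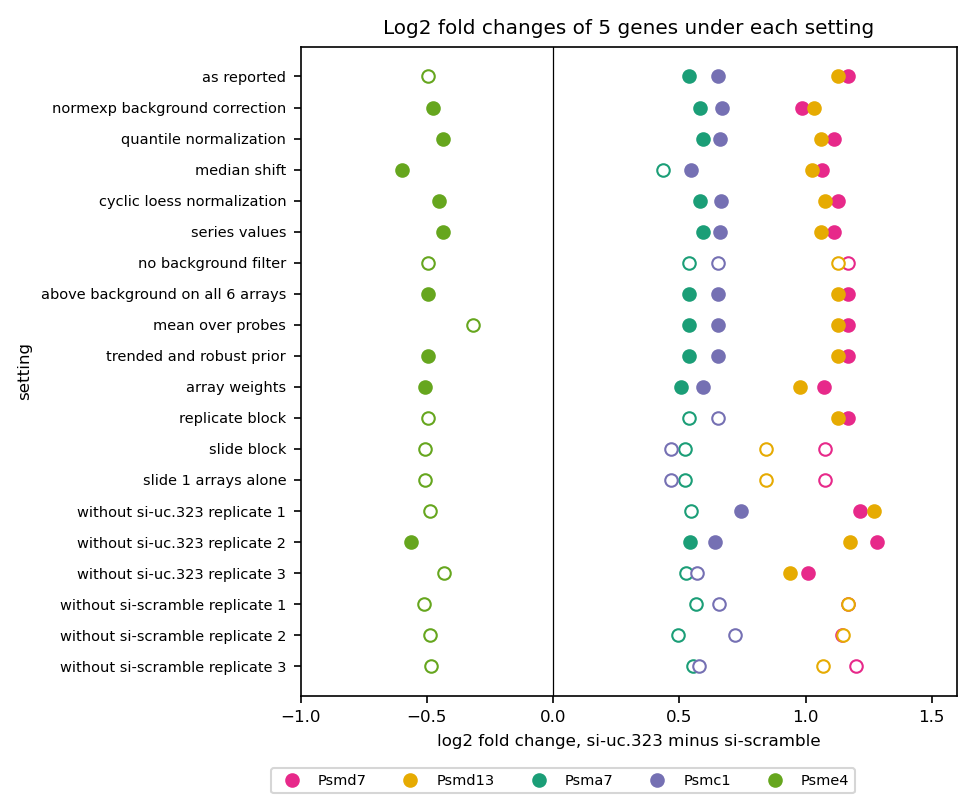
Log2 fold change of the 4 called proteasome genes and of Psme4 under each processing setting, with filled points for an adjusted p under 0.05. All values of Psmd7, Psmd13, Psma7 and Psmc1 lie above 0 and those of Psme4 below it, and none is filled when a si-scramble array is left out, with the slide as a block, on slide 1 alone or without the background filter.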

How the data were processed

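RNA of 6 cultures was hybridised to single-colour Agilent arrays. The deposited scanner files hold spot intensity that the authors extracted (Agilent Feature Extraction 11.0.1.1 in the submitters' processing notes), background-subtracted and detrended within the array, per the file headers. Other flags, such as well above background, come from the same deposited files. The deposited series table holds log2 values, which correlated with the scanner values at 0.995 to 0.9995 and had a median of 6.51 in the column checked. How they were scaled and centred is not stated here, and they served as an alternative. Both they and quantile normalization gave 405 named genes called higher, so these settings are not separate checks.

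Control and outlier spots were left out (322 to 594 of 42877 spots per array carried an outlier flag, and 0 were saturated). Log2 intensities were shifted by the 75th percentile of the array, 1205 to 1775 intensity units in si-uc.323 cells and 1182 to 1381 in si-scramble cells. A probe was kept when all 3 arrays of either group had it well above background, and 44 probes lacking a value somewhere were dropped. Of 30367 probes, 18005 were named by 1 gene through the unversioned accession in a RefSeq table (GRCr8), 0 by several and 12362 by none. The brightest probe stood for a gene. Groups were compared with limma 3.58.1 in R 4.3.3 with data.table, version 1.17.8, without covariates, 2-sided, with Benjamini-Hochberg adjustment over 19920 features. The fit was tested on simulated data. Figures used matplotlib 3.10.9 in Python 3.11.15.

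The members, gene lists and tests were chosen with earlier results of these data known. Array values are given for members past the threshold, for the 2 with the lowest adjusted p among alpha, beta, ATPase, non-ATPase, activator and inhibitor, and chaperone genes, for the extremes, for Psmb5, Psmb6, Psmb7, Psmb10, Psmd4 and Psmd14, and, added after values were seen, for Psmd3, Psma4, Psmc4, Psmd10, Psmc3ip and Psme3ip1. Of each pathway list, called genes, the gene with the lowest adjusted p and Nfe2l1, Nfe2l2, Pomp, Psmb8, Psmb9 and Usp14 are named. The rule also names Psmd11 and Uchl5, which were not analysed here. Promoter motifs were searched on both strands. Alternatives were normexp background correction (offset 50), quantile, median and cyclic loess scaling, the series values, other background filters, the mean over probes, array weights, a trended robust prior, a block for replicate or slide, slide 1 alone and each array left out in turn.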

Additional observations from a re-analysis of the deposited data

How the results depend on the processing

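The log2 fold changes of Psmd7, Psmd13, Psma7 and Psmc1 stayed positive under all 19 other settings, but their calls did not. As reported, 4 proteasome genes were higher and 0 lower, beside 3.26% and 2.88% of all named genes. The share of all named genes called higher moved with the setting and is given in brackets. The count of higher proteasome genes was 8 with cyclic loess normalization (4.39%) and 8 with a trended and robust prior (5.26%). Array weights gave si-uc.323 replicates 2 and 3 weights of 0.29 and 0.27 against 2.07 for replicate 1, and the count was then 14 (16%). It was 0 without the background filter (13 at an unadjusted p under 0.05, and 0 of all genes called), with the slide as a block (6 at an unadjusted p under 0.05) and on slide 1 alone (15). Both slide fits rest on si-uc.323 replicate 1. With the replicate block the count was 3 (2.04% of all named genes), with Psma7 and Psmc1 lost and Psmd14 gained. Replicates of the same number were not paired by the check (correlations of deviations 0.20, 0.39 and -0.12), and no label ties them. Leaving out each array in turn gave 0 to 10 higher genes and 0 to 1 lower genes. The counts of higher genes were 3, 10 and 2 without si-uc.323 replicates 1, 2 and 3 (2.22%, 10.4% and 1.13% of all named genes). They were 0 without any one of si-scramble replicates 1, 2 and 3, where 0, 3 and 0 of all named genes were higher. The lower count was 1, always Psme4, with normexp, quantile, median shift and cyclic loess scaling, with the series values, with probes above background on all 6 arrays, with the trended and robust prior, with array weights and without si-uc.323 replicate 2. Medians moved as follows. The median shift gave 0.11 for all proteasome genes, 0.27 for alpha, 0.13 for beta, 0.19 for ATPase and 0.21 for non-ATPase genes. The beta median was 0.28 with quantile normalization, 0.28 with the series values, 0.27 with cyclic loess and 0.20 with array weights, and the alpha median was 0.16 with the slide as a block and 0.16 on slide 1 alone. Leaving out arrays gave 0.20 to 0.27 for all proteasome genes, 0.31 to 0.41 for alpha, 0.22 to 0.26 for beta, 0.27 to 0.34 for ATPase and 0.24 to 0.44 for non-ATPase genes. Signs turned only in named genes that did not pass. Psmg4 read 7.7e-05 with normexp, 0.020 with quantile, 0.011 with cyclic loess, 0.021 with the series values and 0.022 with the mean over probes, and -0.12 to 0.075 with an array left out (0.069 without si-uc.323 replicate 3). Psmb7 read -0.028 with normexp, -0.058 with the median shift and -0.038 to 0.19 with an array left out (-0.012 without si-uc.323 replicate 1). Psmb10 read -0.025 with the median shift and -0.067 to 0.20 with an array left out. Psmf1 read 0.16 with the mean over probes. Psmb9 read -0.038 with normexp, -0.010 with quantile, -0.059 with the median shift and -0.0080 with the series values. Pomp read 0.041 with quantile, 0.015 with cyclic loess, 0.041 with the series values, 0.019 with array weights, 0.11 with the slide as a block, 0.11 on slide 1 alone and -0.11 to 0.038 with an array left out (0.014 without si-scramble replicate 1 and 0.0049 without replicate 3). The cause of these changes was not tested. Precision is limited by having 3 arrays a group.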
